A study of Mus musculus with 6 samples.

Results

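The CXC chemokine genes Cxcl1, Cxcl2, Cxcl3, Cxcl5, Cxcl10, Cxcl12, Cxcl14, Cxcl15 and Cxcl16 and the scavenger receptor gene Ackr3 were described in RNA sequencing libraries of C2C12 cells, a mouse myoblast line. The 10 genes were chosen by name, with earlier results of these data known, and all were found among 24809 genes. On GRCm38, Cxcl5 (90759298 to 90761625), Cxcl3 (90786101 to 90788093), Cxcl15 (90794534 to 90803067), Cxcl1 (90891245 to 90893121), Cxcl2 (90903899 to 90905938) and Cxcl10 (92346638 to 92348889) lie on chromosome 5. Cxcl12 lies on chromosome 6 (117168535 to 117181368), Cxcl14 on 13 (56288643 to 56296811), Cxcl16 on 11 (70454389 to 70459984) and Ackr3 on 1 (90203980 to 90215724). The libraries came from C2C12 cells overexpressing Msx1, a homeobox transcription factor (n = 3), and from control C2C12 cells (n = 3), whose columns are headed as a vector. No source used here states how Msx1 was introduced, whether a group is 1 clone or several, or at which culture stage cells were taken. Nor do the labels name separate cultures, and p-values therefore reflect the spread among these libraries, which may be technical.

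CXC chemokines are small secreted proteins that guide cells along gradients through G protein-coupled receptors. Those with a glutamate-leucine-arginine (ELR) motif before the first cysteines, among them Cxcl1, Cxcl2, Cxcl3, Cxcl5 and Cxcl15, draw neutrophils, for the most part through Cxcr2. Cxcl10 acts on Cxcr3 and is induced by interferon. Cxcl12 acts on Cxcr4, guides muscle precursors during development and regeneration, and is taken up by the scavenger Ackr3. Myoblasts release ELR chemokines in response to inflammatory cytokines.

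Values are FPKM as the authors deposited them, fragments scaled by transcript length and by the mapped fragments of a library, summed here over the transcripts of a gene. Levels can thus be compared between genes, while each value is relative to the rest of its library. Changes are differences of log2(FPKM + 1), Msx1 overexpression minus control, with SE and Benjamini-Hochberg adjusted p from limma over the 12371 genes that averaged 0.5 FPKM or more across the 6 libraries. A gene was called at an adjusted p under 0.05. Msx1 itself read 912 to 1004 FPKM in the Msx1 libraries and 7.13 to 7.99 FPKM in control. Low values put the depth of the libraries between 0.841 and 1.08 times that of Msx1 replicate 1, and the absolute number of fragments is unknown. Log2 values correlated at 0.9899 to 0.9946 within groups and at 0.9378 to 0.9416 between groups. Among all genes tested, 22.0% were called higher and 32.4% lower. Of the 8 myoblast markers, all tested, 2 rose, 3 fell and 3 were not called. Their sum, 226 to 237 FPKM in Msx1 and 256 to 261 FPKM in control libraries, was carried mostly by Des. It covers opposite changes of Myf5, at 1.64 ± 0.0968 FPKM in Msx1 and 9.01 ± 0.396 FPKM in control cells (change -1.92, limma adjusted p = 2.77e-07), and Myog, at 5.75 ± 0.153 FPKM in Msx1 and 2.76 ± 0.469 FPKM in control cells (change 0.85, limma adjusted p = 1.71e-04; SD, n = 3 each).

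The promoters of 8 of the 10 genes were matched by symbol in RefSeq (GRCm38.p6), those of all but Cxcl5 and Cxcl16. The 3 neighbouring paralogs Cxcl1, Cxcl2 and Cxcl3 are shown because their promoters share their layout while their transcripts differ widely in level. Cxcl15 lies between them and moved the other way from Cxcl1, and Cxcl10, Cxcl12 and Ackr3 stand for the interferon-responsive, homeostatic and scavenger genes. Each line runs 5′ to 3′ from 120 bases before to 20 bases after the annotated start (250 before to 50 after for Cxcl10). Capitals mark matches, on either strand, to the NF-κB consensus and to 5 other patterns. These were the TATA hexamer TATAAA, the extended TATA octamer ATAAAAGG that can overlap it, the AP-1 pattern TGANTCA, the Msx homeodomain core TAATTG, and an interferon element of GAAA, any 2 bases and GAAA again. Overlapping matches run together.
Cxcl1 (chr5:90891125-90891264, plus strand): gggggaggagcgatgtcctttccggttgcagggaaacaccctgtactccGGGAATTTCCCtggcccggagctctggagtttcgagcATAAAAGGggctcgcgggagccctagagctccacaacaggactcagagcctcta
Cxcl2 (chr5:90903779-90903918, plus strand): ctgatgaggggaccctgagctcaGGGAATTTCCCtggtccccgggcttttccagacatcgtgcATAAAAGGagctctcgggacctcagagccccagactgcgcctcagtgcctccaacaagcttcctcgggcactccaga
Cxcl3 (chr5:90785981-90786120, plus strand): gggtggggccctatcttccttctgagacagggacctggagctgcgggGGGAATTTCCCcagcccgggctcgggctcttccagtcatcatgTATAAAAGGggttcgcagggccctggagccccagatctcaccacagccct
Cxcl15 (chr5:90794414-90794553, plus strand): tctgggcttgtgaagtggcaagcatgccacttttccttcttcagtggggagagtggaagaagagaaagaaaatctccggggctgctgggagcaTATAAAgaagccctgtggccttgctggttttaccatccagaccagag
Cxcl10 (chr5:92348840-92349139, minus strand): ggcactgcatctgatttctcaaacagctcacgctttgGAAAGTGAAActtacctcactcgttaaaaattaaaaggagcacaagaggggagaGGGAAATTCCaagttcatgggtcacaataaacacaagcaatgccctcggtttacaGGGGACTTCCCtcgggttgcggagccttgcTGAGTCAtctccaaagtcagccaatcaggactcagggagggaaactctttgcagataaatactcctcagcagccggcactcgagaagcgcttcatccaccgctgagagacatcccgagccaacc
Cxcl12 (chr6:117168415-117168554, plus strand): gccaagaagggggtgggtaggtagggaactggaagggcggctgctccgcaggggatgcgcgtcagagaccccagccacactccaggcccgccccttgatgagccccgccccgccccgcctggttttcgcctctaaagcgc
Ackr3 (chr1:90203860-90203999, plus strand): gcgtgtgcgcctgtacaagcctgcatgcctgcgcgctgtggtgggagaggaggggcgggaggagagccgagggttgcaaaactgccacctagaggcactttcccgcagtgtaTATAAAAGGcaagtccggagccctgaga

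The NF-κB decamer of the Cxcl1 promoter, GGGAATTTCC, began 71 bases before the start there, and the same letters began 97 bases before it in Cxcl2 and 73 in Cxcl3. It was in 29 of 32851 RefSeq promoters of 300 bases (0.0883%). The octamer began 34, 57 and 29 bases before the start in Cxcl1, Cxcl2 and Cxcl3. The wider NF-κB consensus was in 4 of the 8 promoters, the fourth being Cxcl10, and in 8.46% of all promoters. Cxcl10 alone among the 8 held the AP-1 pattern (7.81% of all promoters), and Cxcl10 and Cxcl14 held the interferon element (3.44%). The hexamer was in Cxcl3, Cxcl15 and Ackr3 (13.6%), and the octamer in Cxcl1, Cxcl2, Cxcl3 and Ackr3 (1.76%). The hexamer began 30, 27 and 8 bases before the start in Cxcl3, Cxcl15 and Ackr3, and the octamer 7 in Ackr3. The Msx core was in 0 of 8 (8.0%). A match describes letters only, and the window says nothing of sites elsewhere.

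Msx1 overexpression went with far lower Cxcl5 and Cxcl1, far higher Cxcl15, higher Ackr3 (change 1.07), and modestly higher Cxcl12 and Cxcl14. Of the 10 genes 7 passed the minimum for testing, and 4 were called higher, 2 lower and 1 not called. Over all genes tested 54.4% were called, 22.0% higher and 32.4% lower, so a call by itself sets no gene apart here. The groups of the same 6 genes did not overlap, as in 25.5% of all genes tested with Msx1 higher and 36.8% with Msx1 lower. Changes of at least 3 on the log2 scale were rarer, at 0.348% of genes upward and 0.0970% downward. Cxcl15 was among the former, and Cxcl5 and Cxcl1 among the latter. The members were chosen with earlier results of these data known, and Cxcl15 passed the minimum only through the Msx1 libraries. These shares therefore describe the genes and lend them no support of their own. In bulk RNA, fewer cells with a transcript and less of it per cell cannot be told apart.

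**Figure D1:**
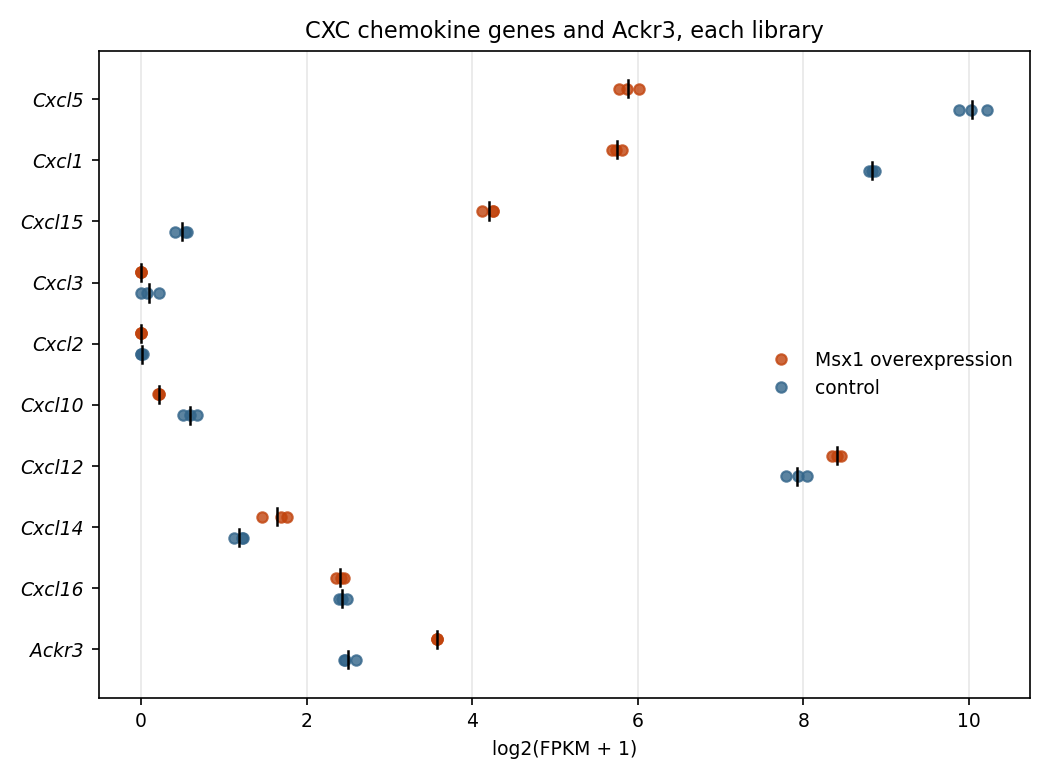
Levels of the 9 CXC ligand genes and Ackr3 as log2(FPKM + 1). Each point is 1 library, Msx1 overexpression above control in each row, and the black tick is the mean of 3. Cxcl5 and Cxcl1 lie far lower and Cxcl15 far higher in the Msx1 libraries, and Cxcl16 overlaps.

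Cxcl5, a neutrophil attractant that acts on Cxcr2, stood at 63.5, 53.8 and 57.4 FPKM in the Msx1 libraries, against 938, 1193 and 1040 FPKM in control. Every Msx1 library lay far below every control library. The mean of 58.2 ± 4.91 FPKM in Msx1 cells was 18.2-fold below the 1057 ± 128 FPKM of control cells (SD, n = 3 each). The change was -4.16 (SE 0.10, limma adjusted p = 5.83e-08), which ranked 2 among the decreases of 12371 genes. By level Cxcl5 ranked 1248 of 24809 genes in Msx1 cells and 33 in control cells.

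Cxcl1, the prototype mouse neutrophil chemokine, read 52.2, 50.6 and 55.2 FPKM in the Msx1 libraries and 442, 452 and 464 FPKM in control. The groups were tight and did not overlap. The fall was 8.60-fold on means (change -3.08, SE 0.05, limma adjusted p = 1.21e-08; rank 9 among the decreases), and the rank by level was 1408 in Msx1 and 125 in control cells. The fall of Cxcl5 was the larger one in these libraries. The log2 ratio of Cxcl5 to Cxcl1 (each FPKM + 1) was 0.28, 0.09 and 0.06 in the Msx1 libraries and 1.08, 1.40 and 1.16 in control, a difference of -1.07. Permuting the libraries exactly, two-sided, gave p = 0.1, and 3 libraries a group cannot go lower.

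Cxcl15, known as lungkine from its expression in mouse lung, went the other way. It read 18.0, 16.4 and 18.0 FPKM in the Msx1 libraries and 0.452, 0.325 and 0.476 FPKM in control. All Msx1 libraries were more than an order of magnitude above all control libraries, and the ratio of means was 41.8. The change was 3.70 (SE 0.07, limma adjusted p = 2.33e-08), rank 21 among the increases. At a pseudocount of 0.1 the change was 5.10, since the control level lies below 1 FPKM. Cxcl15 passed the minimum only through the Msx1 libraries, so it could be tested only because it differed.

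The other ELR members were at or near 0. Cxcl2 was listed at 0 in all Msx1 libraries and in control replicates 1 and 2, and at 0.018 FPKM in control replicate 3. Cxcl3 was listed at 0 in all Msx1 libraries, against 0.159, 0.055 and 0 FPKM in control. Both were below the minimum for testing. These transcripts resemble Cxcl1, and no source used here states how reads were divided among such copies. The platelet genes Ppbp and Pf4 lie between Cxcl5 and Cxcl3. Ppbp, the precursor of an ELR chemokine, was at 0.674, 0.392 and 0.609 FPKM in Msx1 and at 2.98, 3.09 and 2.90 FPKM in control libraries, without overlap (change -1.36, SE 0.09, limma adjusted p = 7.25e-06; -2.26 at a pseudocount of 0.1). Pf4, which lacks the ELR motif, was below the minimum, at 0 to 0.24 FPKM in Msx1 and 0.303 to 0.803 FPKM in control libraries. Without a filter Pf4 was called lower too (change -0.46, limma adjusted p = 0.0382), which makes 2 of the other CXC ligand genes lower in place of 1.

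Cxcl10, the interferon-induced ligand of Cxcr3, was low in both groups. It read 0.162, 0.149 and 0.165 FPKM in the Msx1 libraries and 0.417, 0.600 and 0.513 FPKM in control, without overlap, and missed the minimum for testing. Without a filter its change was -0.38 (SE 0.05, limma adjusted p = 0.00134). Cxcl10 overlaps the Art3 gene on the annotation, and reads of overlapping genes cannot be told apart without strand. The other Cxcr3 ligands Cxcl9 and Cxcl11 reached at most 0.040 and 0.027 FPKM in any library.

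Cxcl12, the homeostatic ligand of Cxcr4, was high in both groups, at 337, 324 and 351 FPKM in the Msx1 libraries and 221, 263 and 244 FPKM in control. The lowest Msx1 library lay above the highest control library. The rise was 1.39-fold on means (change 0.48, SE 0.08, limma adjusted p = 0.00112). It rose in rank too, being gene 160 by level in Msx1 and 259 in control cells. The table holds 3 transcripts of the gene. The alpha form, of 89 residues, read 253, 243 and 269 FPKM in Msx1 and 151, 185 and 170 FPKM in control libraries, 1.51-fold higher on means. The beta form, of 93 residues, differed less, at 69.7, 67.7 and 68.9 FPKM in Msx1 libraries, against 59.9, 65.8 and 65.8 FPKM in control. The gamma form, of 119 residues, was lowest, at 13.2 to 14.1 FPKM in Msx1 and 8.74 to 12.1 FPKM in control libraries. Alpha held 75.0% to 76.6% of Cxcl12 FPKM in Msx1 libraries and 68.3% to 70.4% in control. These shares rest on the division of reads among overlapping transcripts and were not tested.

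Cxcl14, a ligand of epithelia and muscle with a debated receptor, read 2.23, 1.75 and 2.41 FPKM in Msx1 and 1.34, 1.33 and 1.17 FPKM in control libraries. The groups did not overlap (change 0.45, SE 0.10, limma adjusted p = 0.00472). Cxcl16, made as a transmembrane protein and acting on Cxcr6, overlapped between groups at 4.35, 4.14 and 4.46 FPKM in Msx1 and 4.60, 4.36 and 4.26 FPKM in control libraries. Its change of -0.02 (SE 0.06, limma adjusted p = 0.769) lost its sign under 5 of 17 refits (range -0.11 to 0.07). Its messenger transcript alone read 3.80 to 4.15 FPKM in Msx1 and 4.16 to 4.50 FPKM in control libraries, and that form did not pass either (change -0.11, limma adjusted p = 0.248). Cxcl16 overlaps Zmynd15 on the annotation.

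The make-up of the ligand transcripts turned over. Summed over 15 measured CXC ligand genes, FPKM came to 478.5, 451 and 490 in the Msx1 libraries and to 1610, 1919 and 1759 in control. ELR ligands held 26.8% to 28.1% of that sum in Msx1 and 85.7% to 85.9% in control libraries. Cxcl12 held 71.3% ± 0.723 in Msx1 and 13.8% ± 0.115 in control cells, and Cxcl5 held 12.3% ± 0.872 in Msx1 and 59.8% ± 2.10 in control cells (SD, n = 3 each). Cxcl12 was the most abundant ligand in Msx1 cells, followed by Cxcl5 and Cxcl1, whose libraries overlapped, and by Cxcl15. In control cells the order was Cxcl5, Cxcl1 and Cxcl12 without overlap, and Cxcl15 was the ninth, with libraries that overlapped those of Cxcl10. Shares are descriptions of the same values and carry no test of their own.

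**Figure D2:**
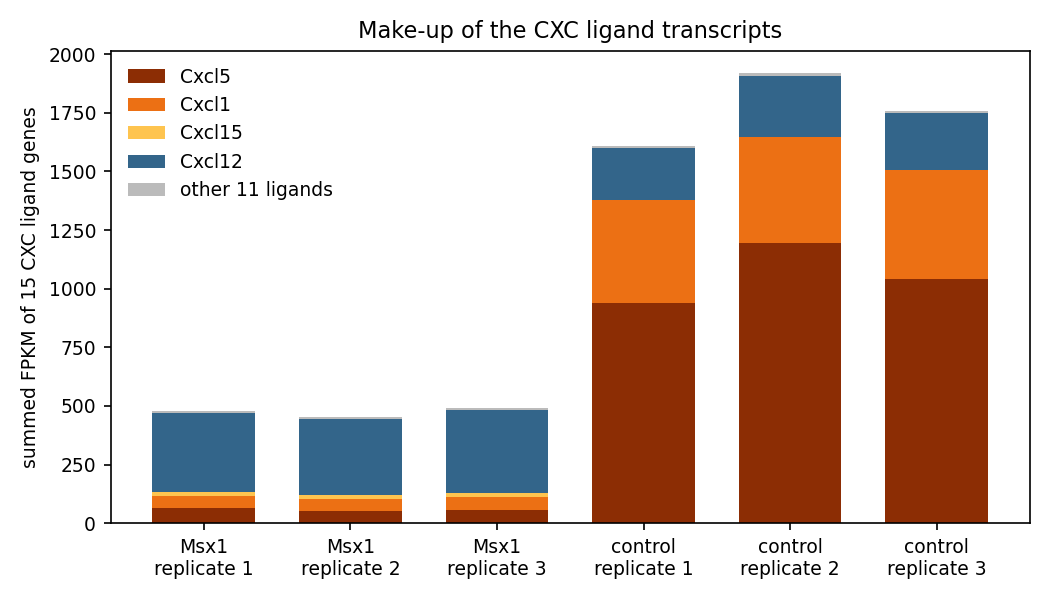
Summed FPKM of 15 CXC ligand genes in each library, with Msx1 libraries on the left and control libraries on the right. Cxcl5 and Cxcl1 fill most of the control bars, and Cxcl12 fills most of the shorter Msx1 bars.

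Ackr3 and Cxcr4, the scavenging and the signalling receptor of Cxcl12, both rose. Ackr3 read 10.95, 10.93 and 10.92 FPKM in the Msx1 libraries and 4.53, 4.46 and 5.06 FPKM in control, 2.34-fold higher on means (change 1.07, SE 0.06, limma adjusted p = 4.39e-06). Its main transcript held 85.3% to 95.2% of that in Msx1 libraries and at least 93.0% in control. Cxcr4 read 30.6, 29.7 and 32.8 FPKM in Msx1 and 12.1, 10.8 and 13.3 FPKM in control libraries (change 1.30, SE 0.08, limma adjusted p = 5.28e-06). The rise of Ackr3 was larger than that of its ligand in these libraries. The log2 ratio of Cxcl12 to Ackr3, also of FPKM + 1, was 4.82, 4.77 and 4.88 in Msx1 and 5.33, 5.60 and 5.34 in control libraries, a difference of -0.60 (exact two-sided permutation p = 0.1, again the smallest possible).

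Other CXC and atypical receptors were mostly close to 0. Of the 9 on the list besides Ackr3, 3 were tested, 2 rose and 1 was not called. All genes tested were called higher in 22.0% and lower in 32.4%, and 3 receptors are too few to compare with that. The largest rise was in Ackr4, a scavenger of homeostatic CC chemokines, at 23.4, 24.5 and 25.7 FPKM in Msx1 and 1.81, 2.30 and 1.77 FPKM in control libraries (change 3.11, SE 0.08, limma adjusted p = 8.51e-08). Cxcr6, the receptor of Cxcl16, overlapped at 0.565 to 0.922 FPKM in Msx1 and 0.479 to 0.758 FPKM in control libraries (change 0.09, limma adjusted p = 0.492). Cxcr1 and Cxcr2, through which ELR chemokines act, were listed at 0 in all 6 libraries, and Cxcr3, Cxcr5 and Ackr1 reached at most 0.054, 0.035 and 0.038 FPKM. Ackr2 reached 0.101 FPKM in Msx1 and 0.028 FPKM in control libraries. Without a filter 3 receptors were called higher, Ackr2 with them (limma adjusted p = 0.0363).

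**Figure D3:**
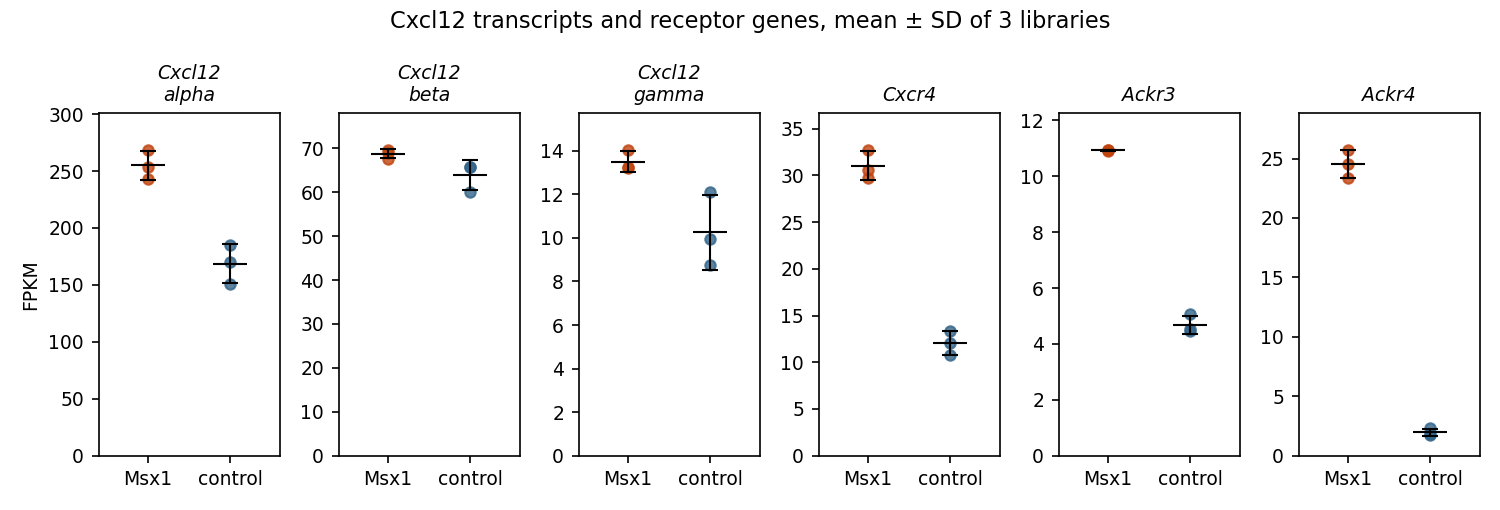
FPKM of the alpha, beta and gamma transcripts of Cxcl12 and of the receptor genes Cxcr4, Ackr3 and Ackr4. Points are libraries, Msx1 left of control, and bars give mean ± SD of 3. In all 6 panels every Msx1 library lies above every control library, least so for the beta transcript.

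The members of chromosome 5 span 1590 kb from Cxcl5 to Cxcl10 (90759298 to 92348889, GRCm38), and 27 genes of the table lie there. Cxcl15 starts 35.2 kb and Cxcl1 131.9 kb beyond the start of Cxcl5, so the strongest rise lies between both strong falls. Of the 13 tested genes of the span that are not members, 0 rose, 10 fell and 3 were not called. Over all genes tested 22.0% were called higher and 32.4% lower. The median change of the 13 was -0.35, against -0.07 over all genes tested. After median-of-ratios scaling and with sample weights 1 of them, Sdad1, was called higher. The epidermal growth factor family genes Ereg and Areg fell most beside Ppbp. Ereg read 3.11, 3.47 and 2.78 FPKM in Msx1 and 9.04, 10.5 and 9.28 FPKM in control libraries (change -1.36, SE 0.09, limma adjusted p = 6.20e-06). Areg read 0.370, 0.468 and 0.691 FPKM in Msx1 and 2.89, 1.96 and 2.36 FPKM in control libraries (change -1.17, SE 0.12, limma adjusted p = 1.13e-04; -2.06 at a pseudocount of 0.1). The falls of Naaa (-0.59), Cdkl2 (-0.67), Thap6 (-0.42), Uso1 (-0.35), Rchy1 (-0.26), Btc (-0.20) and Parm1 (-0.18) were smaller. The calls of Btc and Parm1 were lost in 9 of 15 and 14 of 16 refits, among them each one without a library, and that of Uso1 with equal totals without Msx1. Mthfd2l (-0.10), G3bp2 (-0.25) and Sdad1 (0.12) were not called. The 8 genes of the span that are not members and were below the minimum for testing were Pf4, Cxcl9, Epgn, Gm19619, 1700063O14Rik, Odaph, U90926 and Ppef2, of which Odaph reached 0.404 FPKM and Ppef2 0.344 FPKM, and 1700063O14Rik was listed at 0 in all libraries.

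**Figure D4:**
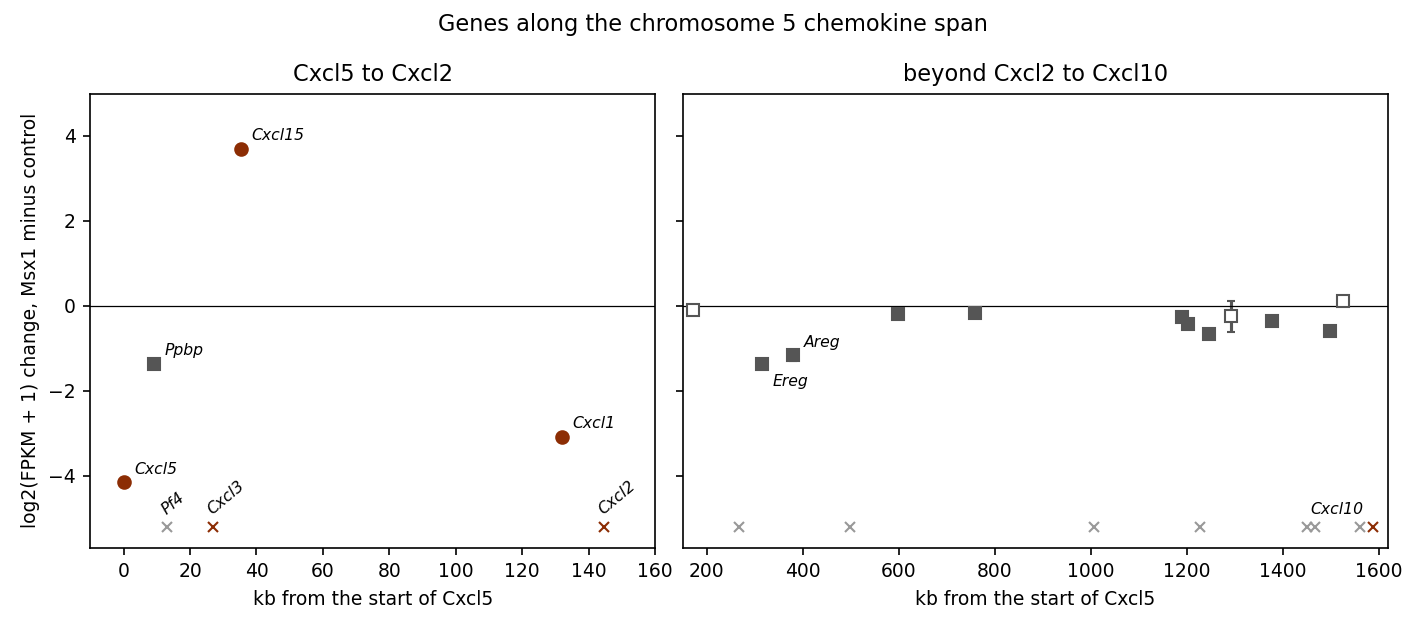
Change in log2(FPKM + 1), Msx1 minus control, against distance from the start of Cxcl5 for genes of the chromosome 5 span, with SE as bars. Circles are members, squares other genes, filled where called, and crosses mark genes below the minimum for testing. Cxcl15 (3.70) stands between Cxcl5 (-4.16) and Cxcl1 (-3.08).

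By distance of centred log2(FPKM + 1) over the 6 libraries, the genes nearest to Cxcl5 outside the family were Ptn (0.277), which encodes the growth factor pleiotrophin, Cck (0.942) and Aoc3 (1.06). Ptn averaged 3.62 ± 0.167 FPKM in Msx1 and 88.5 ± 5.57 FPKM in control cells. Those nearest to Cxcl1 were Fmo1 (0.168), Cbr2 (0.231) and the BMP antagonist gene Grem1 (0.248), at 29.2 ± 1.66 FPKM in Msx1 and 242 ± 22.7 FPKM in control cells (SD, n = 3 each). With 6 libraries in 2 groups, such distances reflect mainly the size of the group difference.

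Genes known to control ELR chemokine transcription did not move as one. Of 17 tested genes of the NF-κB module, 2 rose, 6 fell and 9 were not called, with a median change of -0.04. Over all genes tested 22.0% were called higher and 32.4% lower, the background for this list and those that follow. A mix of calls by itself therefore sets no list apart, and no list was tested as a set. Nfkbiz, a nuclear cofactor that NF-κB needs at many secondary response genes, fell to 6.594, 6.120 and 5.195 FPKM in Msx1 libraries, against 18.8, 23.3 and 20.4 FPKM in control (change -1.65, SE 0.10, limma adjusted p = 5.32e-06). Bcl3, a relative of Nfkbiz, averaged 3.33 ± 0.334 FPKM in Msx1 and 6.39 ± 0.967 FPKM in control cells (change -0.77, limma adjusted p = 6.10e-04), and Nfkb1, the p50 precursor, 32.7 ± 1.43 FPKM in Msx1 and 44.0 ± 1.13 FPKM in control cells (SD, n = 3 each). The kinase gene Map3k14 (change 0.59, limma adjusted p = 1.92e-04) rose, as did Ikbkg (0.25), which encodes the regulatory IKK subunit. The number called higher was 5 after median-of-ratios scaling, 4 after quantile normalization, 6 with equal totals without Msx1 and 5 with sample weights.

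Upstream receptors split as well, with 4 of 17 tested genes of IL-1, TNF, IL-17 and Toll-like receptor input higher, 5 lower and 8 not called (median 0.02). Tlr2, a sensor of bacterial lipoproteins, fell to 14.3, 14.6 and 14.2 FPKM in Msx1 libraries, against 38.6, 42.5 and 42.3 FPKM in control (change -1.45, SE 0.05, limma adjusted p = 4.48e-07). The receptor subunit genes Il17rc (-0.58) and Il1r1 (-0.37) fell, while Il17rd (0.66), Tnfrsf1b (0.45) and Il17ra (0.35) rose. The ligand genes Il1a, Il1b, Tnf and Il17a were below the minimum. Il1a averaged 0.0877 FPKM in Msx1 and 0.272 FPKM in control cells, without overlap, and Il1b, Tnf and Il17a reached at most 0.132, 0.051 and 0 FPKM. Without a filter the number lower in this list was 6. Of 13 genes of interferon input, 3 rose (Ifngr1, Irf1 and Jak1, at 0.54, 0.40 and 0.36), 4 fell, led by Jak2 (-0.70), Tyk2 (-0.26) and Irf7 (-0.27), and 6 were not called (median -0.07). The number called lower there was 1 with equal totals without Msx1 and 2 without Msx1 replicate 1.

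Among 10 genes that control chemokine mRNA turnover 0 rose, 5 fell and 5 were not called (median -0.16). Zc3h12a, an RNase that degrades cytokine transcripts, fell to 9.02, 7.84 and 8.01 FPKM in Msx1 libraries, against 25.7, 24.3 and 23.8 FPKM in control (change -1.46, SE 0.07, limma adjusted p = 1.14e-06). The genes of the decay factors Zfp36 (-0.38) and Zfp36l1 (-0.35) fell less. The number lower was 3 after median-of-ratios scaling, 1 with equal totals without Msx1, and 3 without Msx1 replicate 1, without Msx1 replicate 3 or without control replicate 2. The number higher was 1 without control replicate 2, with sample weights, with equal totals without Msx1 and after median-of-ratios scaling.

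Of 4 tested genes that process or shed chemokines, 2 rose and 2 were not called (median 0.27). The matrix protease genes Mmp2 and Mmp14, whose products cut Cxcl12, rose by 0.61 and 0.54. Mmp2 averaged 1122 ± 11.9 FPKM in Msx1 and 734 ± 31.8 FPKM in control cells, and Mmp14 366 ± 6.17 FPKM in Msx1 and 252 ± 8.96 FPKM in control cells (SD, n = 3 each). Adam10, which sheds Cxcl16, was not called (0.01). The number lower in this list was 1 with sample weights, without a filter or without control replicate 1, not necessarily the same gene each time. Of 7 genes that transduce or end signals of Cxcr4 and Ackr3, 2 rose, 4 fell and 1 was not called (median -0.16). The receptor kinase gene Grk5 rose (0.56, limma adjusted p = 4.59e-05), as did Grk6 (0.21), while Arrb1, encoding a β-arrestin (-0.34), the G protein gene Gnai3 (-0.33) and Grk2 (-0.15) fell. The call of Grk6 was lost without each library but control replicate 1, and that of Grk2 without each library but that one and under all 3 scalings. The number lower in this list was 2 under the 3 scalings and without Msx1 replicate 2, Msx1 replicate 3 or control replicate 3.

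**Figure D5:**
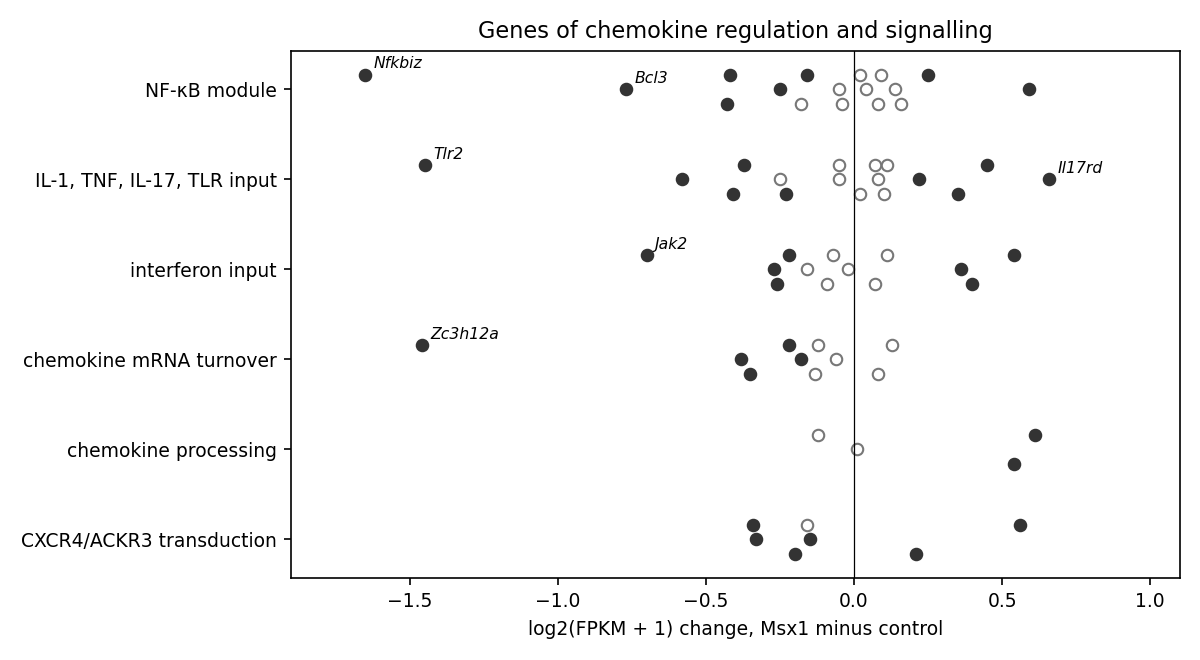
Change in log2(FPKM + 1), Msx1 minus control, for tested genes of 6 lists tied to chemokine regulation and signalling. Each point is a gene, filled where called. Most lie within 0.5 of 0 on either side, and Nfkbiz (-1.65), Tlr2 (-1.45) and Zc3h12a (-1.46) stand lowest.

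Markers of other cell types that make or answer CXC chemokines had means in both directions within each list. Most were below the minimum for testing. With 22.0% of all genes tested called higher and 32.4% lower, the few calls among them set no list apart. The 8 leukocyte markers summed to 21.5 to 25.8 FPKM in Msx1 and 12.2 to 14.99 FPKM in control libraries. Of the 2 tested, Lyz2, which made up most of the sum, rose, at 20.2 to 24.6 FPKM in Msx1 and 9.20 to 11.02 FPKM in control libraries (change 1.04, limma adjusted p = 3.93e-05). Cd68 fell, at 0.931 to 1.16 FPKM in Msx1 and 2.59 to 3.29 FPKM in control libraries (change -0.96, limma adjusted p = 6.07e-05), and Ptprc, Adgre1 and Tyrobp were listed at 0 in all 6. The 6 neutrophil markers summed to 1.21 to 2.06 FPKM in Msx1 and 0.432 to 0.637 FPKM in control libraries, most of it Elane in the Msx1 libraries, with S100a9 and Mpo listed at 0 in all. Only Elane was tested, and it passed the minimum through the Msx1 libraries (mean 1.17 FPKM, against 0.0709 FPKM in control). Ly6g and Csf3r, near 0, averaged higher in Msx1 as well. S100a8 averaged lower, at 0.152 FPKM in Msx1 and 0.459 FPKM in control cells. The 4 endothelial markers summed to 0.523 to 0.878 FPKM in Msx1 and 0.220 to 0.269 FPKM in control libraries, and 0 of them were tested. Cdh5 (0.556 FPKM in Msx1, 0.118 FPKM in control) and Kdr (0.114 and 0.00927 FPKM) averaged higher in Msx1. Pecam1 (0.0220 FPKM in Msx1, 0.0603 FPKM in control) and Tek (0.0230 and 0.0614 FPKM) averaged lower. The 4 fibroblast markers summed to 629 to 675 FPKM in Msx1 and 398 to 465 FPKM in control libraries, nearly all of it Ly6a, at 616 ± 22.2 FPKM in Msx1 and 400.5 ± 39.4 FPKM in control cells (change 0.62, limma adjusted p = 4.62e-04; SD, n = 3 each). Col1a1 rose as well (0.24), Pdgfra fell, at 8.84 ± 0.583 FPKM in Msx1 and 18.7 ± 1.84 FPKM in control cells (change -1.0, limma adjusted p = 2.86e-05), and Thy1 reached at most 0.08 FPKM. Their part in the chemokine values was not tested.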

How the data were processed

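Per the labels' protocols, Trizol RNA went into NEBNext Ultra libraries. Trimmomatic, HISAT2 and StringTie and the build GRCm38 (mm10) are named in the submitters' processing notes, and no source used here states their versions, settings or use of strand. The authors deposited FPKM for 38468 RefSeq transcripts in 6 libraries. Control columns, headed as a vector, were matched to control samples by number. Symbols came from RefSeq (38193 transcripts) and GENCODE M21 (156), 119 transcripts kept their identifiers, and FPKM were summed to 24809 genes.

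The 12371 genes that averaged 0.5 FPKM or more were tested, Msx1 against control, in 1 limma fit (3.58.1, R 4.3.3) of log2(FPKM + 1), with a prior variance that follows intensity and Benjamini-Hochberg adjustment. The script was tested on simulated data in which only genes well above the minimum were given changes, so recovery at low levels was not examined. Ratios of members used exact permutation tests (scipy 1.17.1). Relative depth was read from the commonest ratio of values below 0.1 FPKM between libraries. Alternatives were other pseudocounts, filters, 3 scalings, no trend, sample weights, a replicate block, the most abundant transcript alone and leaving out each library.

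The 10 members and all lists were chosen with earlier results of these data known. Named were all members, every measured gene of the chromosome 5 span, every receptor, up to 3 called genes per direction and list by adjusted p, and the 3 genes nearest to Cxcl5 and to Cxcl1.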

Additional observations from a re-analysis of the deposited data

How the results depend on the processing

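The calls of Cxcl5, Cxcl1, Cxcl15, Cxcl12, Cxcl14 and Ackr3 kept their direction and side of the threshold under all 17 alternatives, and 4 members were higher and 2 lower under each of the 16 run for counts, except that 3 were lower without a filter, where Cxcl10 was tested too. Over all genes the share of calls that were higher was 40.4% as reported, 55.5% with equal totals without Msx1 and 51.3% after median-of-ratios scaling. Cxcl16, never called, had changes of 0.04 after median-of-ratios scaling, 0.01 after quantile normalization or sample weighting, 0.07 with equal totals without Msx1, and -0.04 to 0.00 with single libraries left out. G3bp2 had one of 0.12 without Msx1 replicate 2, in a range of -0.58 to 0.12 over such refits. Of the genes in the pathway lists 25 were lower as reported and 13 with equal totals without Msx1. Total FPKM was 390439 to 401802 in Msx1 and 409664 to 441835 in control libraries. That scaling sets the totals, less Msx1, equal, which raises values of the Msx1 libraries relative to control. Why the totals differ was not tested. With single libraries left out, 13 to 16 genes of the pathway lists were higher and 19 to 27 lower, against 2266 to 2847 and 3296 to 4243 of all genes. The differences in the ratios of Cxcl5 to Cxcl1 and of Cxcl12 to Ackr3 were then -1.14 to -0.98 and -0.64 to -0.51. Deviations of same-numbered libraries correlated at 0.055, 0.226 and 0.037, all above 0. Msx1 replicates 1 and 2 correlated best with the control library of their own number, and Msx1 replicate 3 with control replicate 1 (0.133). The remaining combinations correlated at -0.204 to -0.011. The labels state no pairing, and the main fit took none. Whether the numbers mark pairs was not tested. The replicate block gave 2692 higher and 4055 lower genes, and it changed the calls of Btc (lost, adjusted p = 0.0698), Parm1 (lost, 0.0893) and G3bp2 (gained, 0.0126) among the 50 named genes tested. In exact tests of the block as pairs, with a smallest p of 0.25, the ratios differed by -1.07 and -0.60. Cxcl2 and Cxcl3 lie at or near 0 and Cxcl10 is low in both groups, and how far depth limits their values was not tested.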
